A study of Mus musculus with 12 samples.

Results

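A group of 33 mouse genes listed as interferon-stimulated was followed in cultured muscle tissue of 2 C2C12 lines. The RNA of most such genes rises when a cell senses interferon. The genes were chosen by name, as the rows of the deposited tables whose gene name equals a listed member. All 33 were found, among 78298 genes in the count table. C2C12 is an established line of mouse myoblasts that fuse into multinucleated myotubes when growth serum is withdrawn.

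Wild-type cells (WT) gave 6 libraries, and a line with a genetically encoded calcium indicator (RGECO) gave another 6, per the labels. Cells of both lines were placed on a hydrogel of methacrylated gelatin and kept for 14 days in differentiation medium, which held 10% inactivated horse serum, aminocaproic acid at 1 mg per ml and IGF-1 at 50 ng per ml. No interferon and no virus are named for any library. The sources used here do not say how the indicator was introduced or whether the RGECO line is 1 clone, so the indicator and any other difference between the lines cannot be told apart.

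Type I interferons bind the receptor pair Ifnar1 and Ifnar2, whose kinases Jak1 and Tyk2 phosphorylate Stat2. It joins Irf9 in a complex that binds the interferon-stimulated response element (ISRE) in promoters, whereas interferon gamma acts mainly through the gamma-activated site (GAS). The products sense viral nucleic acids, block viral translation, budding or replication, and carry the signal further, and many are present at low levels in resting cells.

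Promoters in the RefSeq table for GRCm38.p6, from 250 bases before to 50 bases after each gene start, were matched for 25 of the 33 members, Rigi under its older symbol Ddx58. The core of the ISRE was searched as GAAANNGAAA and the core of the GAS as TTCNNNGAA, on both strands. The ISRE core was present in 13 of the 25 members (52%), against 3.99% of 27025 genes with a promoter in the table. The GAS core was present in 7 of the 25 members (28%), against 9.55% of those genes. Of the members with a promoter, 7 of the 16 that had enough counts for a test held the ISRE core, as did 6 of the 9 that did not. A match is a run of letters, not a measured binding site, and the gene set is named for its response to interferon, so these shares describe the genes and not the libraries.

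These stretches were chosen because they show the ISRE core, in capitals and on either strand, in members that the counts later place at very different levels. Each has 60 bases, 5′ to 3′ along the gene's strand. In Isg15 (chr4:156200856-156200915, minus strand) 3 matches overlap, the first beginning 78 bases before the start of the gene. In Ifit1 (chr19:34640769-34640828, plus strand) and Ifit3 (chr19:34583365-34583424, plus strand) 2 separate matches lie side by side. Rsad2 (chr12:26456538-26456597, minus strand) holds 1 match, 120 bases before the start. Bst2 (chr8:71537565-71537624, minus strand) holds 2 overlapping matches, with a GAS match that begins at position -136 and runs into the first of them. Gbp2 (chr3:142620579-142620638, plus strand) holds 1 match and Gbp3 (chr3:142559977-142560036, plus strand) 2 overlapping ones.
Isg15: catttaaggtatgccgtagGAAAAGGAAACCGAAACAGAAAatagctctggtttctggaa
Ifit1: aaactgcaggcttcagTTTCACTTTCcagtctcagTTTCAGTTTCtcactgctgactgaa
Ifit3: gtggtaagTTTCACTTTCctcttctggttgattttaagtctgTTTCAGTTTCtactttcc
Rsad2: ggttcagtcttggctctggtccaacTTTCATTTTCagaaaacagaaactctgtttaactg
Bst2: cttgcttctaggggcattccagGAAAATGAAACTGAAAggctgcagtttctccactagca
Gbp2: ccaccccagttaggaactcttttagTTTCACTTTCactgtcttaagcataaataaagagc
Gbp3: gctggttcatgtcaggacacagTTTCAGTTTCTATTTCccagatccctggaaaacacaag

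Ifit2, the member called between the lines, has 2 promoters in the table, and neither held the ISRE core in its 300 bases. The 250 bases before each start are shown, from chr19:34550444-34550693 and chr19:34550838-34551087, both on the plus strand. Capitals mark the GAS core, present once, at position -241 of the upstream promoter. That the core is missing says only that these letters are not in these windows.
Ifit2 upstream start: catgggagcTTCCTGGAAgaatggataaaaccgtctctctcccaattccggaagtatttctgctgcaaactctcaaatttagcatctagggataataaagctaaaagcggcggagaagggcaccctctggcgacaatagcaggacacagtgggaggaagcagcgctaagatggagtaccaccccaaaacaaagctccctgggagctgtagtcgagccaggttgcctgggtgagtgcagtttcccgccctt
Ifit2 downstream start: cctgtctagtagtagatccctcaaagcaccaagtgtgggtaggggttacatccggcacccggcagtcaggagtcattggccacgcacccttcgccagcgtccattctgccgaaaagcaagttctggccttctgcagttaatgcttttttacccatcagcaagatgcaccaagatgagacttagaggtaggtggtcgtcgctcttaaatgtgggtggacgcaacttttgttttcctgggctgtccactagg

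The library of RGECO replicate 4 held 825 estimated counts in 252 genes and 0 counts in the members, and was left out. The other libraries held 9370322 to 11744314 counts in WT (n = 6) and 5881622 to 11926220 in RGECO (n = 5), so a floor of 3 counts was 0.245 to 0.524 counts per 1000000 (CPM). The mitochondrial share of counts ran from 0.204% to 1.68% in WT and from 0.298% to 1.33% in RGECO, and many genes moved with it inside each line. The myotube markers were abundant, with a summed TPM (transcripts per 1000000, corrected for gene length) of 10200 to 12280 in WT and 13130 to 17820 in RGECO. Of 11 markers of macrophages, lymphocytes and endothelium, only 2 had enough counts for a test and neither was called, by edgeR or DESeq2, though Cd14 had an unadjusted p under 0.05. The 2 tested, Cd68 and Cd14, averaged 25.1 and 2.69 TPM over the 11 libraries, whereas Adgre1 was at 0 and Ptprc had 1 count. Fibroblast markers summed to 982 to 1741 TPM in WT and 845 to 950 TPM in RGECO. The fibroblast markers moved in both directions, with Dcn called higher (log2 fold change 0.96) and Col1a1 and Col3a1 called lower (-1.98 and -0.80). Pdgfra averaged only 5.61 TPM over the 11 libraries and was not called (adjusted p 0.563, edgeR). Thy1 was nearly absent, with 0 counts in WT and 1 in RGECO. Of 7 myotube markers edgeR called Myh3 higher (0.54) and DESeq2 called 2 higher, while Ckm was lower (-0.35) and not called. Of all genes tested, edgeR called 8.35% and DESeq2 12.6% in either direction. The part of these markers in the results on the members was not tested. In such bulk RNA, fewer cells of a type and less RNA per cell cannot be told apart.

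Most members were low in these tissues, and a few carried most of the signal. On the TPM scale, 16 of the 33 members had a mean under 1 over the 11 libraries, 8 had a mean of at least 10, and the 10 highest made up 88.0% of the summed TPM. Ifi27, a small protein of mitochondrial and nuclear membranes, stood first at a mean of 56.3 TPM, followed by the transcription factor Irf1 at 35.7 TPM. Bst2, Xaf1, Irf3 and Stat2 followed at 18.7, 17.6, 17.5 and 16.5 TPM, and their ranges over libraries overlapped, so their order was not resolved. Trim25, Ifi35, Rigi and Eif2ak2 closed the 10 highest at 14.0, 12.1, 8.55 and 7.80 TPM. Adar, just outside them, stood at 6.53 TPM. Isg15, one of the most strongly induced genes of the interferon response, had a mean of 0.908 TPM and 0 to 8 counts per library.

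**Figure D1:**
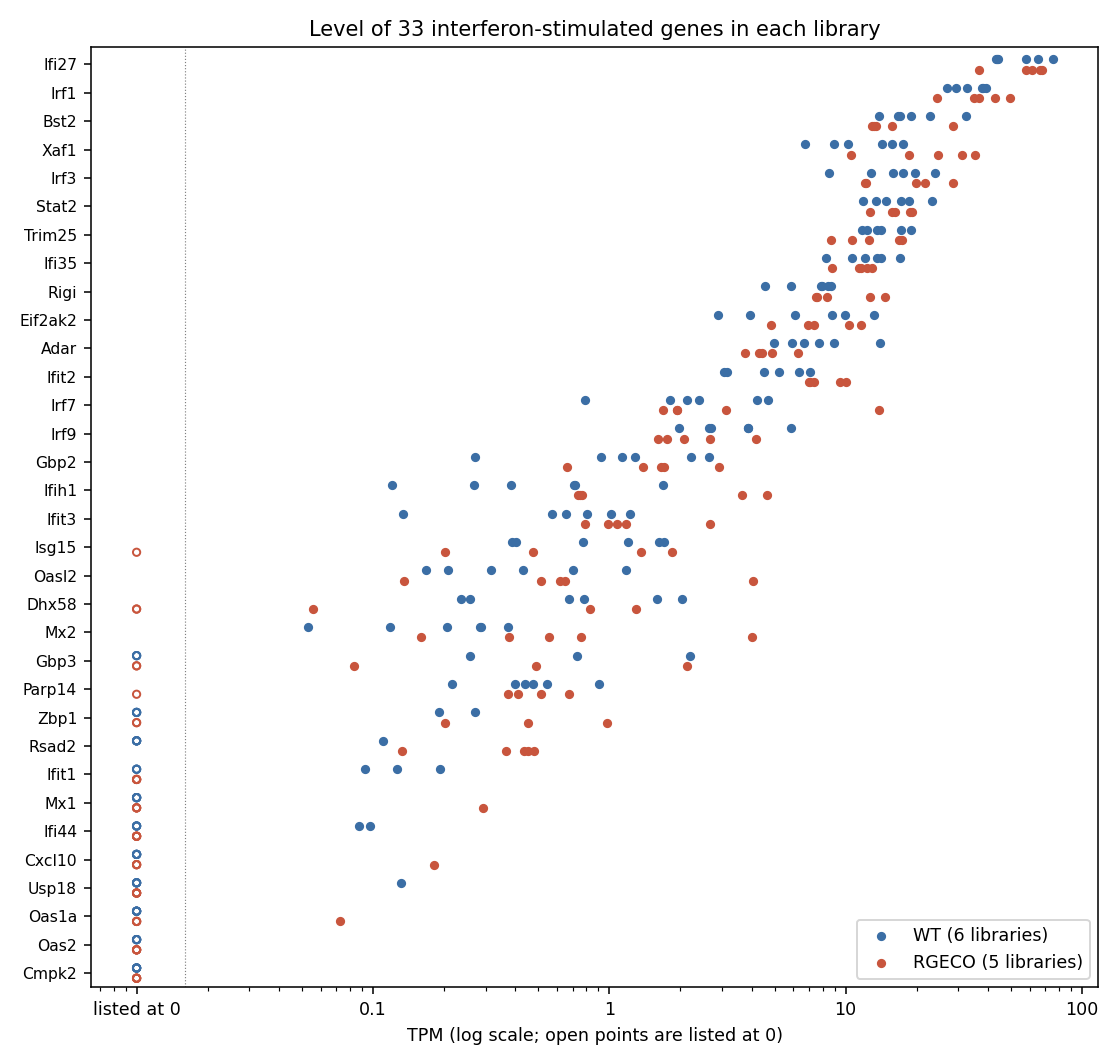
TPM of each of the 33 members (rows, in order of mean TPM) in each library on a log scale, with WT in blue (6 libraries), RGECO in red (5 libraries) and open points for values listed at 0. The points of the 2 lines overlap in nearly every row, and levels span from Ifi27 at a mean of 56.3 TPM to Oas2 and Cmpk2, listed at 0 in all 11 libraries.

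The comparison of the lines asks in which of these genes the indicator line differed from wild-type cells. Ifit2 was higher in RGECO, 0 members were called lower, and the summed CPM of the 33 members differed between the lines by less than its SD in either line. It averaged 284.9 ± 8.92 over the WT libraries (SD, n = 6) and 285.7 ± 8.86 over those of RGECO (SD, n = 5), and summed TPM averaged 221.8 ± 30.6 and 245.1 ± 16.0, a difference above the SD in RGECO and below that in WT. Of the 33 members, 18 passed the filter on low counts. In edgeR's quasi-likelihood test, with p-values adjusted over 13318 genes by Benjamini-Hochberg, 1 of these 18 was called higher, where 3.42% of all genes tested were, and 0 were called lower, by edgeR or DESeq2, where edgeR called 4.93%. In either direction the share of all genes called was 8.35%. At an unadjusted p under 0.05, 3 members were higher (Ifit2, Xaf1 and Ifih1) and 2 were lower (Irf9 and Adar), where 22.1% of all genes tested passed in either direction. The median log2 fold change of the 18 was -0.04 (7 above 0, 11 below 0), beside -0.01 over all genes tested. For 10 of the 18 the 95% interval lay inside a 2-fold change either way, as it did for 74.0% of all genes tested.

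**Figure D2:**
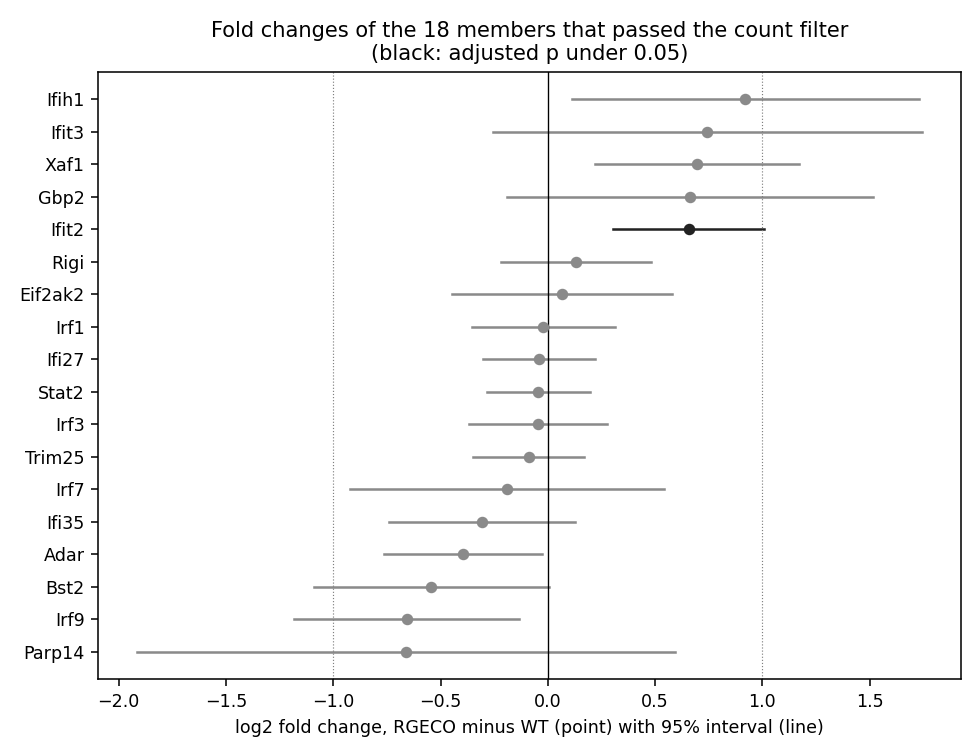
Log2 fold change (RGECO minus WT) of the 18 members that passed the count filter, with 95% intervals as lines, dotted marks at 2-fold and the called member in black. Ifit2 at 0.66 is the only one called. Intervals of Ifih1, Ifit3, Gbp2 and Parp14 are wide, and those of Ifi27, Stat2, Irf1, Irf3 and Trim25 lie well inside 2-fold.

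Ifit2 (ENSMUSG00000045932) belongs to the family of proteins with tetratricopeptide repeats that interfere with viral translation. Its CPM was 10.6 at the lowest, 14.5 at the median and 19.4 at the highest in WT. In RGECO replicates 1, 2, 3, 5 and 6 it was 26.0, 24.8, 20.5, 22.9 and 20.4. In CPM all 5 RGECO libraries stood above all 6 WT libraries, which was so for 1 of the 18 members tested, where the lines did not overlap in 7.97% of all genes tested. In TPM the lines overlapped, with WT replicate 5 at 7.084 TPM above RGECO replicates 3 and 6 at 7.002 and 7.071 TPM. The mean CPM values were 14.5 ± 3.17 (SD, n = 6) and 22.9 ± 2.50 (SD, n = 5), and the log2 fold change was 0.66 ± 0.16 (SE), a 1.58-fold higher level, with an adjusted p of 0.0210 (edgeR). The call was lost without RGECO replicate 1 (adjusted p 0.0568) or RGECO replicate 2 (0.0534). It was also lost when TPM was tested in place of counts, where limma on log2(TPM + 1) gave 0.68 with an adjusted p of 0.0961 and called 0 members, against 4.54% of all genes. Over the 20 alternatives run, the log2 fold change stayed between 0.59 and 0.78 and the adjusted p ran from 0.00227 to 0.232.

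Of the close relatives of Ifit2 among the members, Ifit3 was tested and did not pass, and Ifit1 had too few counts for a test. Ifit3 averaged 0.942 ± 0.450 CPM over the WT libraries (SD, n = 6) and 1.62 ± 0.772 CPM over those of RGECO (SD, n = 5), with overlapping ranges of 0.222 to 1.57 and 0.981 to 2.94. Its log2 fold change was 0.74 ± 0.47 (SE) with an adjusted p of 0.394 (edgeR). Ifit1 had 9 counts in 3 WT libraries and 0 counts in RGECO, which is near the floor in both lines. The difference between Ifit2 and its relatives was not tested, and near-identical copies in this gene cluster can share reads.

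**Figure D3:**
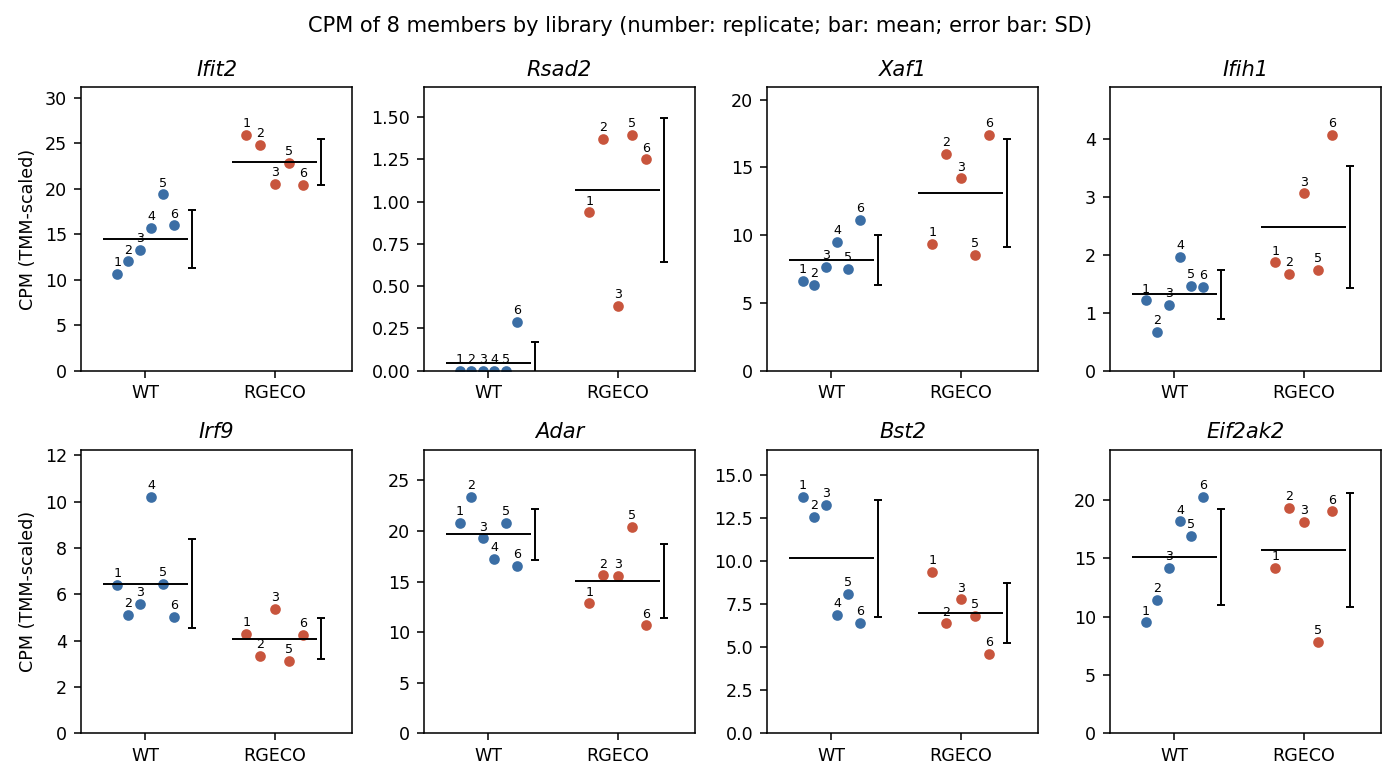
CPM of 8 members in each library, WT in blue and RGECO in red, with replicate numbers, a bar at the mean and an error bar of 1 SD (n = 6 and n = 5). In Ifit2 and Rsad2 every RGECO point lies above every WT point. In the other 6 members the lines overlap.

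Rsad2 (ENSMUSG00000020641), whose product viperin blocks the replication of several viruses, was the other member whose lines did not overlap in CPM. With Ifit2 that made 2 of the 33 members. The share of 7.97% was taken over genes that passed the filter, so it gives no background for Rsad2. Rsad2 was singled out after its values were seen, since its counts were too low for the filter. WT held 0 counts in 5 libraries and 3 counts in replicate 6. RGECO held 7, 14, 4, 8 and 15 counts in replicates 1, 2, 3, 5 and 6. Summed over each line, 48 counts in RGECO stood against 3 in WT, a CPM ratio of 21.1 with a 95% counting interval of 6.80 to 106. In the edgeR fit without a filter the adjusted p was 0.0061, where 3.67% of 29162 genes were called, and it stayed between 0.000236 and 0.0296 without any 1 library. Limma on log2(TPM + 1) without a filter gave an adjusted p of 0.119. Its mean over the RGECO libraries was 1.07 CPM. Cmpk2, which neighbours Rsad2 and is often induced with it, had 0 counts in all 11 libraries.

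Of the sensors of viral RNA, Rigi and Ifih1 were tested and neither passed. Rigi, the RIG-I receptor for short double-stranded RNA with a 5′ triphosphate, was 17.3, 22.3 and 25.7 CPM at the lowest, median and highest WT library. In RGECO replicates 1, 2, 3, 5 and 6 it was 19.3, 25.3, 21.9, 20.6 and 31.9 CPM. The lines overlapped apart from RGECO replicate 6, and the log2 fold change was 0.13 ± 0.17 (SE, adjusted p 0.709, edgeR).

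Ifih1, the MDA5 receptor for long double-stranded RNA, was much lower. It was 0.667, 1.33 and 1.96 CPM at the lowest, median and highest WT library and 1.87, 1.67, 3.07, 1.75 and 4.09 CPM in the RGECO libraries. Replicates 3 and 6 of RGECO were above all WT libraries and the other RGECO libraries overlapped with them. The log2 fold change was 0.92 ± 0.38 (SE) with an adjusted p of 0.161 (edgeR), so the difference did not pass. Dhx58, the LGP2 helicase that modulates both receptors, had 43 counts in WT and 23 in RGECO, of which 14 were in replicate 6 and 0 in replicates 1 and 5. Zbp1, a sensor of Z-form nucleic acids, had 5 and 8 counts.

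Eif2ak2 and Adar act on double-stranded RNA inside the cell, Eif2ak2 (PKR) by halting translation and Adar by editing adenosine to inosine. Eif2ak2 was 9.51, 15.6 and 20.2 CPM at the lowest, median and highest WT library and 14.2, 19.3, 18.1, 7.86 and 19.0 CPM in RGECO. It spread by more than 2-fold inside each line, and its log2 fold change of 0.07 ± 0.24 (SE) had an adjusted p of 0.916 (edgeR). Adar was 16.6, 20.0 and 23.4 CPM at the lowest, median and highest WT library and 12.9, 15.6, 15.5, 20.4 and 10.7 CPM in RGECO. Of the RGECO libraries only replicate 5 lay inside the WT range, and the log2 fold change of -0.40 ± 0.17 (SE) had an adjusted p of 0.185 (edgeR), so it did not pass.

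Of the signal transducers and interferon regulatory factors among the members, 0 were called by edgeR or DESeq2, and Irf9 alone had an unadjusted p under 0.05. Stat2, a transducer of type I signalling, was 39.3, 42.4 and 52.4 CPM at the lowest, median and highest WT library. In RGECO it was 44.97, 39.9, 46.1, 40.9 and 42.4 CPM, all inside the WT range. Its log2 fold change was -0.04 ± 0.11 (SE), with a 95% interval of -0.28 to 0.19.

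Irf1, which drives genes downstream of interferon gamma and also acts without interferon, was 33.3, 38.8 and 49.2 CPM at the lowest, median and highest WT library. In RGECO it was 33.2, 36.9, 42.1, 54.5 and 32.4 CPM, with replicate 5 above all WT libraries and replicates 1 and 6 just below them. Irf3, which turns on interferon beta after a virus is sensed, was 10.1, 11.9 and 14.3 CPM at the lowest, median and highest WT library and 13.1, 10.6, 11.98, 10.5 and 12.3 CPM in RGECO. The RGECO libraries of Irf3 all lay inside the WT range. Irf1 and Irf3 had 95% intervals of -0.35 to 0.31 and -0.37 to 0.27 on the log2 scale, so changes of 2-fold fell outside both.

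Irf9, the DNA-binding subunit of the ISRE complex, was 5.03, 6.001 and 10.2 CPM at the lowest, median and highest WT library and 4.28, 3.34, 5.37, 3.14 and 4.25 CPM in RGECO. Only RGECO replicate 3 reached the WT range, and WT replicate 4 stood far above the other WT libraries. The log2 fold change of -0.66 ± 0.25 (SE) had an adjusted p of 0.122 (edgeR) and did not pass. Irf7, the amplifier of the interferon alpha response, ran from 1.18 to 3.52 CPM in WT and from 1.61 to 3.14 CPM in RGECO, with an adjusted p of 0.811 (edgeR).

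Among membrane and cell-death effectors, Xaf1 and Bst2 came nearest to the threshold and in opposite directions. Xaf1, which binds the caspase inhibitor XIAP and promotes apoptosis, was 6.34, 7.59 and 11.1 CPM at the lowest, median and highest WT library. In RGECO it was 9.37, 16.0, 14.2, 8.56 and 17.4 CPM. RGECO replicates 2, 3 and 6 were above every WT library and replicates 1 and 5 were inside the WT range. The log2 fold change was 0.69 ± 0.22 (SE), and the adjusted p of 0.0690 (edgeR) missed the threshold. It passed without RGECO replicate 5 (0.0328) or WT replicate 6 (0.0392), and in DESeq2, where it was called with Ifit2 (0.0249 for Xaf1) and 12.6% of all genes were called. Over the 20 alternatives its adjusted p ran from 0.00175 to 0.279.

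Bst2 (tetherin), which holds budding virus at the cell surface, was 6.39, 10.3 and 13.7 CPM at the lowest, median and highest WT library and 9.37, 6.38, 7.76, 6.81 and 4.59 CPM in RGECO. WT replicates 1, 2 and 3 stood at 12.6 to 13.7 CPM, above all RGECO libraries, and the other WT libraries lay among them. The log2 fold change was -0.54 ± 0.26 (SE) with an adjusted p of 0.232 (edgeR). Ifi27 was 25.2, 26.7 and 30.7 CPM at the lowest, median and highest WT library and 22.1, 31.0, 28.6, 25.0 and 25.6 CPM in RGECO. Its log2 fold change was -0.04 ± 0.12 (SE), with a 95% interval of -0.30 to 0.22.

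Trim25, the ubiquitin ligase that activates RIG-I, was 36.2, 39.9 and 44.8 CPM at the lowest, median and highest WT library and 41.5, 38.1, 43.4, 30.03 and 36.3 CPM in RGECO. Replicate 5 of RGECO was below every WT library and the rest lay inside or at the edge of the WT range. On the log2 scale the lines differed by -0.09 ± 0.12 (SE, RGECO minus WT). Ifi35, a partner of Nmi that is induced by interferon, was 7.75, 11.5 and 17.6 CPM at the lowest, median and highest WT library and 10.4, 10.2, 10.3, 8.21 and 10.9 CPM in RGECO. All RGECO values of Ifi35 lay inside the WT range, and the adjusted p was 0.418 (edgeR). Gbp2, a guanylate-binding protein that attacks vacuoles of pathogens, and Parp14, an ADP-ribosyltransferase, had log2 fold changes of 0.66 ± 0.40 and -0.66 ± 0.59 (SE) and did not pass.

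The 15 members below the filter include much of what is used elsewhere as an interferon signature. Oas2, which makes the second messenger that activates RNase L, was at 0 in all 11 libraries, as was Cmpk2. Another 6 were seen in 1 to 3 libraries. Ifit1 (9 counts), Ifi44 (4 counts) and Usp18, the protease that removes Isg15 from proteins (2 counts), were seen in WT only. Mx1, a GTPase that traps viral capsids (7 counts, all in replicate 6), the chemokine Cxcl10 (3 counts, in replicate 2) and Oas1a (1 count) were seen in RGECO only. With so few counts no direction can be read from these 6, and no fold is given.

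Isg15 itself, a ubiquitin-like protein that is joined to other proteins, had 27 counts in WT and 14 in RGECO. Oasl2 had 41 and 36 counts and Gbp3 had 21 and 10. Mx2 had 26 and 40 counts, a CPM ratio of 2.03 with a 95% counting interval of 1.21 to 3.46, and 0.0981 to 0.667 CPM in WT against 0.288 to 1.75 CPM in RGECO. The counting interval leaves out the spread between libraries, and in the edgeR fit without a filter Mx2 had an adjusted p of 0.441. The 15 members together held 23 to 42 counts per library in WT and 30 to 60 in RGECO, and each library held a count for 4 to 8 of them. A count of 0 over a whole line allows a level of up to 0.0496 CPM in WT and 0.0655 CPM in RGECO, for counting error only.

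**Figure D4:**
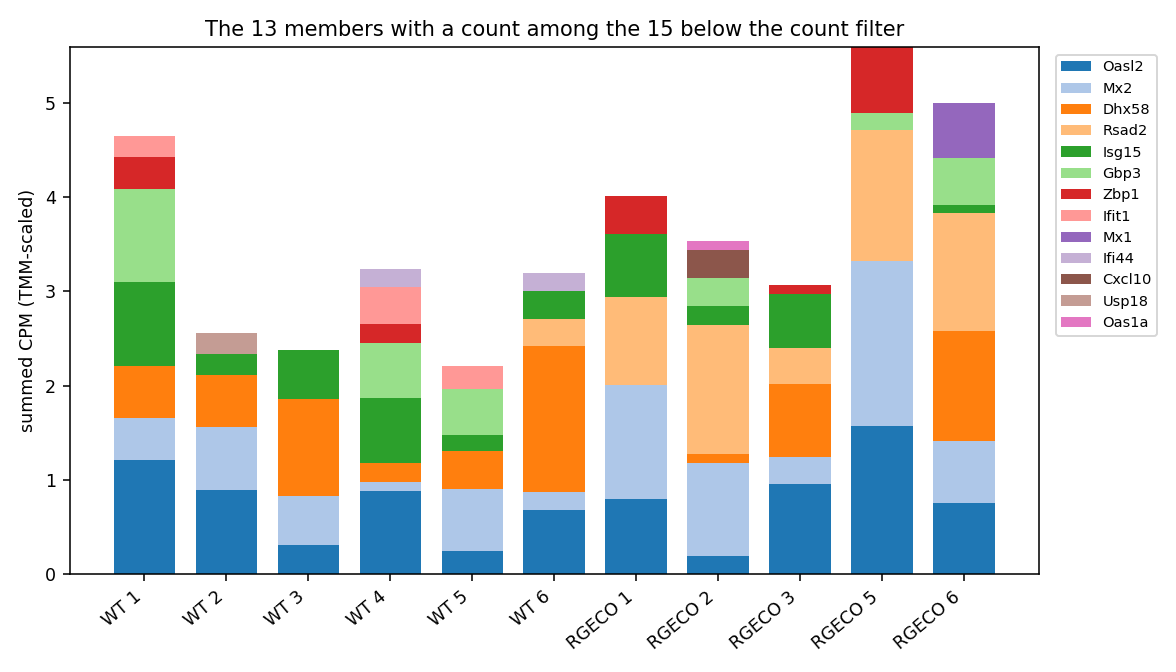
Summed CPM per library of the 13 members with any count among the 15 below the filter, stacked by gene. The stacks reach 2.21 to 4.64 CPM in WT and 3.07 to 5.59 CPM in RGECO. Rsad2 fills a visible part of all 5 RGECO bars and of 1 WT bar.

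Several members moved with the mitochondrial share of counts inside the lines, in both directions. In a fit with the line as a covariate, 5 of the 18 tested members had a slope past an adjusted p of 0.05 (edgeR), where 35.7% of all genes tested did. Bst2 and Irf1 fell by 0.40 and 0.20 on the log2 scale per SD of the share, an SD of 0.508 percentage points. Eif2ak2, Xaf1 and Rigi rose by 0.32, 0.30 and 0.21. Ifit2 had a slope of 0.10 and did not pass (adjusted p 0.370, edgeR). The 3 RGECO libraries in which Xaf1 was highest were also those with the highest mitochondrial share in that line, at 0.726%, 0.625% and 1.33%.

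With the mitochondrial share as a covariate, the line test called Ifit2, Xaf1 and Ifih1 higher and Adar and Bst2 lower, where 23.5% of all genes were called. With the share of the nuclear RNA Malat1 as a covariate, Ifit2, Xaf1 and Ifih1 were again called higher and Adar and Bst2 lower, where 20.8% of all genes were called. In both fits the share of all genes called was above the 8.35% of the fit without a covariate, so these 5 calls stand against a higher background.

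**Figure D5:**
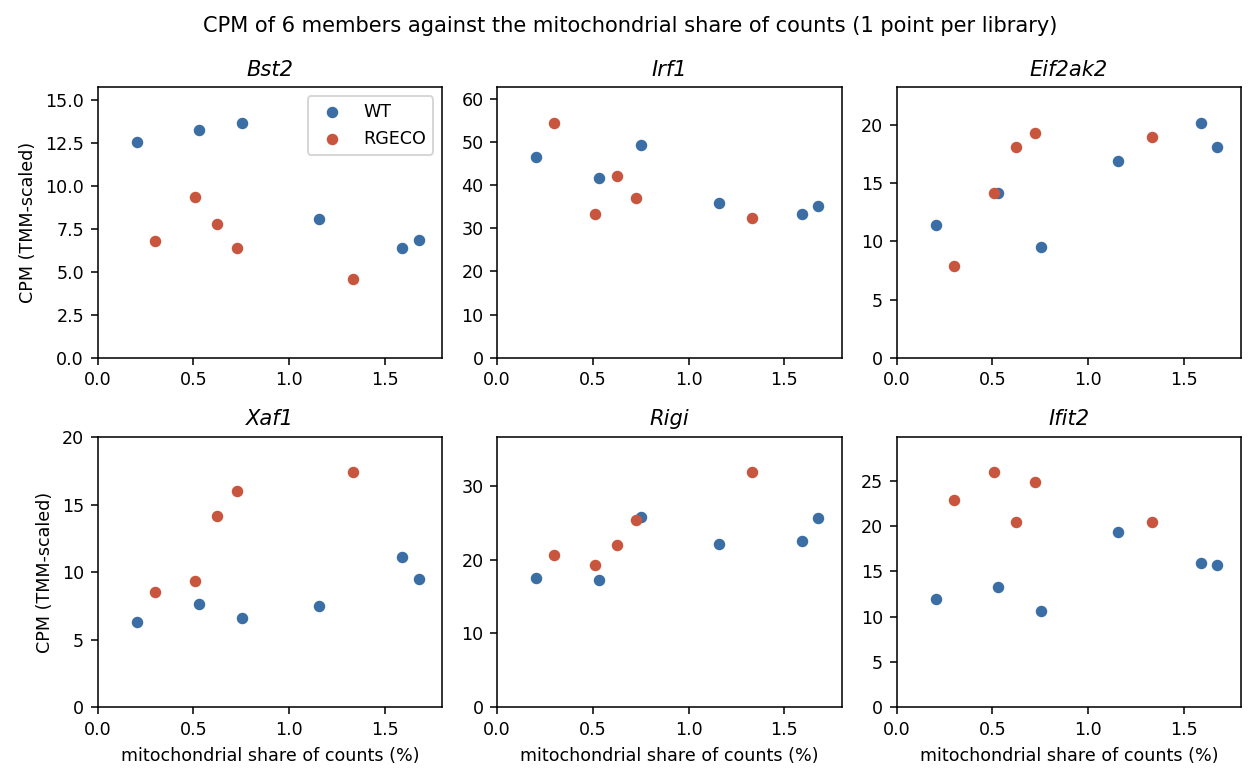
CPM of 6 members (vertical axis) against the mitochondrial share of counts in percent (horizontal axis), 1 point per library, WT in blue and RGECO in red. Bst2 and Irf1 are lower and Eif2ak2, Xaf1 and Rigi higher in libraries with a larger share. The Ifit2 points of the 2 lines do not overlap in CPM, with WT at most 19.4 and RGECO at least 20.4. RGECO has no point above a share of 1.33%.

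Most of the listed genes upstream of the members were expressed, whereas the interferons were nearly absent. Of 10 interferon ligands, 9 (Ifnb1, 4 interferon alphas, Ifne, Ifnk and 2 interferon lambdas) had 0 counts in all 11 libraries, and Ifng had 10 counts in WT and 8 in RGECO. Of 11 receptors, kinases and transducers, 10 passed the filter, and Ifnlr1, at 0.0823 TPM over the 11 libraries, did not. Of the 10, 1 was called higher and 0 were called lower, where edgeR called 3.42% and 4.93% of all genes. DESeq2 gave the same counts, where it called 12.6% of all genes in either direction. The median log2 fold change was -0.01. At an unadjusted p under 0.05, 1 was higher and 1 lower, where 22.1% of all genes passed in either direction. Ifnar1 and Ifnar2 stood at 27.2 and 25.4 TPM over the 11 libraries, and their log2 fold changes of -0.08 and 0.02 did not pass. Ifngr2, the second chain of the interferon gamma receptor, averaged 61.1 ± 5.00 CPM over the WT libraries (SD, n = 6) and 78.5 ± 7.10 CPM over those of RGECO (SD, n = 5), with no overlap in CPM, as in 7.97% of all genes tested. On the log2 scale it was 0.36 ± 0.10 (SE) higher, with an adjusted p of 0.0412 (edgeR). This call was lost when any 1 of WT replicates 2, 3, 4 and 5 or RGECO replicates 1, 2, 3 and 6 was left out, at adjusted p of 0.0544 to 0.0984, and over the 20 alternatives the adjusted p ran from 0.00212 to 0.539.

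Of 15 other nucleic acid sensors, adaptors and kinases, 12 passed the filter. Of the 12, 0 were called higher and 2 were called lower, where edgeR called 3.42% and 4.93% of all genes. DESeq2 gave the same counts, where it called 12.6% of all genes in either direction. At an unadjusted p under 0.05, 0 were higher and 3 lower, where 22.1% of all genes passed in either direction. The median log2 fold change was -0.11. Both that fell are adaptors of Toll-like receptor signalling. The Toll-like receptors listed did not pass the filter. Tlr3 had 61 counts in WT and 29 in RGECO, and Tlr7 and Tlr9 each had 2 in WT and 0 in RGECO. Myd88 averaged 18.1 ± 4.41 CPM over the WT libraries (SD, n = 6) and 9.95 ± 1.51 CPM over those of RGECO (SD, n = 5). Its log2 fold change was -0.86 ± 0.20 (SE) and its adjusted p 0.0117 (edgeR). Traf6 averaged 39.2 ± 8.17 CPM and 23.7 ± 3.48 CPM, with a log2 fold change of -0.72 ± 0.16 (SE) and an adjusted p of 0.00911 (edgeR). The 2 lines did not overlap in either gene, as in 7.97% of all genes tested, and both calls held without any 1 library. On the log2(TPM + 1) scale neither passed, with adjusted p of 0.0665 for Myd88 and 0.328 for Traf6 (limma). Over the 20 alternatives the adjusted p ran from 0.000637 to 0.168 for Myd88 and from 0.000502 to 0.558 for Traf6. Mavs, the adaptor through which Rigi and Ifih1 signal, had a log2 fold change of -0.02 (adjusted p 0.967, edgeR).

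Of 7 other genes of the interferon regulatory factor group, 5 passed the filter and 0 were called by edgeR or DESeq2 or had an unadjusted p under 0.05, with a median log2 fold change of 0.15, and Irf8, typical of myeloid cells, had 0 counts. Of 10 genes listed as negative regulators, 9 passed and 0 were called by edgeR or DESeq2, with a median of -0.17. An unadjusted p under 0.05 was found in 1 of them. Socs1 and Socs3, which shut off Jak kinases, had log2 fold changes of -0.24 and -0.13 and did not pass.

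A wider list held 70 interferon-stimulated genes besides the members, with Isg20 also counted in the list of negative regulators. Of the 70, 37 passed the filter, 2 were called higher and 2 lower, where 3.42% and 4.93% of all genes were. DESeq2 called 3 higher and 3 lower, where it called 12.6% of all genes in either direction. At an unadjusted p under 0.05 (edgeR), 5 were higher and 4 lower, where 22.1% of all genes passed in either direction. The median log2 fold change was 0.04, and 7 were at 0 in all 11 libraries. Slfn5, a member of the Schlafen family, averaged 1.06 ± 0.473 CPM over the WT libraries (SD, n = 6) and 3.02 ± 0.908 CPM over those of RGECO (SD, n = 5). Its log2 fold change was 1.499 ± 0.39 (SE) and its adjusted p 0.0268 (edgeR). Apol9a was 5.04 ± 0.881 CPM in WT and 8.63 ± 2.55 CPM in RGECO, 0.77 ± 0.23 (SE) higher on the log2 scale with an adjusted p of 0.0472 (edgeR), and its near-identical copy Apol9b can share reads with it. Helz2 fell by 0.84 on the log2 scale, from 26.8 ± 3.59 CPM in WT to 14.9 ± 3.93 CPM in RGECO (SE 0.18, adjusted p 0.00687, edgeR). Ifi207, of the cluster of interferon-inducible p200 genes, fell by 1.24, from 7.54 ± 1.57 to 3.11 ± 1.53 CPM (SE 0.33, adjusted p 0.0277, edgeR), and copies in that cluster can share reads.

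Of these 4 calls only that of Helz2 held without any 1 library. The call of Slfn5 was lost without WT replicate 1 (adjusted p 0.0575), WT replicate 5 (0.0551), RGECO replicate 2 (0.0515) or RGECO replicate 6 (0.0817). That of Ifi207 was lost without WT replicate 1 (0.0629), WT replicate 5 (0.0653), RGECO replicate 1 (0.0627) or RGECO replicate 3 (0.0620). That of Apol9a was lost without any 1 of WT replicates 1, 3, 5 and 6 or RGECO replicates 3, 5 and 6, at 0.0747 to 0.122. On the log2(TPM + 1) scale none of the 4 passed, with adjusted p of 0.0736 to 0.334 (limma).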

How the data were processed

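The authors deposited estimated counts per gene, not normalised, and TPM scaled to 1000000 per library, both of them Salmon output merged over samples, per the file headers. The tools in the submitters' processing notes are Salmon, STAR, bedtools 2.25.0 and BWA 0.7.12-r1039. The sources used here give neither their roles nor the annotation or strand setting, so reads of overlapping or antisense genes cannot be told apart.

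The members and gene lists were chosen with earlier results of these data known. Members with an adjusted p under 0.05 and the 10 highest by mean TPM are given by library in RGECO and as lowest, median and highest in WT, and others by range or count unless singled out after their values were seen (Rsad2, Ifih1, Irf9 and Adar). Libraries under 1000000 counts were left out. Counts were rounded and tested in edgeR 4.0.16 (R 4.3.3) after filterByExpr and TMM scaling, with the robust quasi-likelihood F test and Benjamini-Hochberg adjustment over 13318 genes, and the code was tested on simulated data. The common coefficient of variation was 25.2%. Of 363 member values, 362 were whole within 0.01. Alternatives used DESeq2 1.42.0, limma 3.58.1 on log2(TPM + 1) and log2(TPM + 0.1), no filter, all 12 libraries, a replicate block and each library left out. Covariates for the mitochondrial and Malat1 shares, and the unfiltered Rsad2 fits without each library, are described in the text, and the slope on the mitochondrial share and these Rsad2 fits were chosen after seeing the data. The smallest chi-square per gene over 25 pairs of libraries within a line was 7.62, so none was treated as a duplicate. The labels do not say that replicates were separate cultures, so p-values reflect only how these samples vary, which may be technical variation. Counting intervals and floors cover counting error only.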

Additional observations from a re-analysis of the deposited data

Results flagged for a closer look

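A gap test for a single library apart from the rest of its line was run on 48 groups of values, each a member in 1 line with at least 5 counts in its highest library. Of these 3 stood out, where chance alone gives about 1 in 20. Ifi35 in RGECO was lowest in replicate 5, at 8.21 CPM against 10.2 to 10.9 CPM in the others, a gap of 0.735 of the range. Irf9 in WT was highest in replicate 4, at 10.2 CPM against 5.03 to 6.46 CPM, a gap of 0.724 of the range. Mx1 in RGECO had all its 7 counts in replicate 6, a gap of 1.0 of the range. Any group with counts in only 1 library gives that gap, so the rate of 1 in 20 does not hold for Mx1. RGECO replicate 5 had the lowest mitochondrial share of the RGECO libraries (0.298%), replicate 6 the highest (1.33%) and WT replicate 4 the highest of WT (1.68%). Without those libraries the log2 fold changes of Ifi35 and Irf9 kept their sign and neither was called.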

How the results depend on the processing

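The number of members called higher, 1 by edgeR, was 2 with DESeq2, 2 without a filter, 0 on each of the 3 TPM scales, 0 with the replicate block, 3 with the mitochondrial covariate and 3 with the Malat1 covariate, and 0 to 2 when 1 library was left out. It was 0 without RGECO replicate 1 or 2 and 2 without WT replicate 6 or RGECO replicate 5. The number called lower, 0 by edgeR, was 2 with either covariate. The number of all genes called, 1112, was 1674 with DESeq2, 605 on log2(TPM + 1), 587 on log2(TPM + 0.1), 258 on log2(TPM + 1) without a filter, 3133 with the mitochondrial covariate and 2771 with the Malat1 covariate. It was 820 with all 12 libraries, 1071 without a filter and 785 to 1140 when 1 library was left out. The cause of these differences was not tested.

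The replicate block, over the 5 numbers shared by both lines, gave 781 genes and moved Ifit2 to 0.72 (adjusted p 0.0546), against 954 genes in the same 10 libraries without it. For each gene, the deviation of a library from the mean of its line was taken on the log scale. Between same-numbered libraries these deviations, not the levels themselves, correlated at -0.0089, -0.15, 0.0074, -0.15 and 0.36. Only replicate 6 matched its own number best. The labels do not say whether the numbers pair the libraries, and these correlations cannot settle it.

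Values near 0 changed sign. On log2(TPM + 1), with and without a filter, and on log2(TPM + 0.1), Ifi27 was 0.0827 and 0.0840, Irf1 0.123 and 0.126, Irf3 0.181 and 0.191, Stat2 0.0156 and 0.0175, and Irf7 0.321 and 0.405. With 1 library left out, Ifi27 ran from -0.0901 to 0.0174, Irf1 from -0.155 to 0.0628, Irf3 from -0.0886 to 0.0215, Stat2 from -0.0713 to 0.0254 and Eif2ak2 from -0.0297 to 0.228. Of 360 values of the tested members under the alternatives, 315 kept direction and side of the threshold, 28 changed sign, 11 gained and 6 lost a call. The 15 members below the filter had too few counts for these fits, apart from the unfiltered ones.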

Other observations

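TPM and CPM did not rank the libraries alike in several members. The ratio of TPM to CPM for Irf7 ran from 0.672 to 4.42 over the 11 libraries, and RGECO replicate 5 stood at 13.9 TPM with 3.14 CPM, while the next highest TPM was 4.71. For Irf3 the ratio ran from 0.718 to 2.30 and for Xaf1 from 1.06 to 2.62. For Stat2 it ran only from 0.292 to 0.465. Such a ratio moves with the length that is assigned to a gene in a library, and which transcripts lay behind it was not analysed here.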
